A study of Mus musculus with 8 samples.

Results

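The genes described here were the receptors and ligands of the epidermal growth factor (EGF) family that were listed by name: 4 receptors (Egfr, Erbb2, Erbb3 and Erbb4) and 6 ligands (Areg, Ereg, Hbegf, Tgfa, Btc and Nrg1). All 10 were found by symbol among the 24063 genes of the files, in 11 transcript rows, because Egfr had a pair of transcripts and every other gene had 1. RNA was sequenced from 8 cultures of tubuloids, tubule-like structures grown between layers of Matrigel, a basement membrane extract, from tubule fragments of postnatal mouse kidneys. The labels gave a kidney age of postnatal day 7 to 10, and the methods of the study gave an earlier range. Every culture, controls included, had the genotype Pkd2 fl/fl Pax8rtTA TetOCre mTmG. In these cells the Pax8 promoter, which is active in renal epithelium, drives a reverse tetracycline transactivator, and doxycycline (DOX) allows this transactivator to switch on Cre recombinase, which cuts the floxed Pkd2 alleles and turns the mTmG membrane reporter from red to green. Treatment with DOX (4 libraries, numbered 9, 12, 19 and 21) or with the vehicle DMSO (4 libraries, numbered 3, 5, 15 and 20) was given for 3 days from day 3 and the cultures were harvested on day 7 by the labels, whereas the methods place the harvest at a longer interval after treatment than these days leave. The medium of both groups held EGF, hepatocyte growth factor and fibroblast growth factor, after a first pulse of glial-derived neurotrophic factor. Since only the DOX cultures received doxycycline, its own effect and that of Cre cannot be told apart from that of Pkd2 loss. RNA came from the whole culture, which by the study's methods held structures negative for E-cadherin as well as epithelial tubules and spheroids. The labels did not state whether the cultures came from separate animals, so the p-values measure only the spread between these cultures.

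The ErbB receptors are tyrosine kinases of the cell surface that work in pairs. Egfr and Erbb4 bind ligand and signal, Erbb2 binds no known ligand and serves as the partner of the others, and Erbb3 binds neuregulins but has little kinase activity of its own. The ligands are made as membrane-bound precursors that metalloproteases release: Areg and Tgfa bind Egfr, Ereg, Hbegf and Btc bind both Egfr and Erbb4, and Nrg1 binds Erbb3 and Erbb4. In the kidney the family takes part in tubule growth, repair and ion transport, and mislocated or overactive Egfr has long been studied in polycystic kidney disease.

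In GRCm38.p6, the RefSeq build that matches the files, the receptor genes are Egfr (chr11:16752203-16913907), Erbb2 (chr11:98412484-98437716), Erbb3 (chr10:128567523-128589635) and Erbb4 (chr1:68031884-69108576). Tgfa (chr6:86195038-86275744) and Nrg1 (chr8:31807452-32891609) are ligand genes on other chromosomes. Of the 10 genes, 3 lie in the ligand cluster of mouse chromosome 5, where Epgn, Ereg, Areg and Btc follow each other within 375 kb (chr5:91027517-91402994, GRCm38.p6). The RefSeq promoter table on GRCm38.p6, which covers 250 bases before and 50 after 1 transcription start of each gene, held 6 of the 10 genes: Erbb4, Areg, Btc, Tgfa, Egfr and Erbb2. For Tgfa and Erbb4 the start used by the table lies inside the span of the gene rather than at its outer end, so those windows are not at the gene ends given here. The estimated differences of Areg and Btc between DOX and DMSO had opposite signs, but neither passed the test described below. A link of promoter letters to these estimates was not tested. Printed here are the windows of Areg and Btc, neighbouring ligand genes, and of Egfr, the receptor with the highest summed level. They run 5′ to 3′ on the gene's strand, with any cAMP response element (TGACGTCA) and TATA box (TATAAAA) in capitals.

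Areg, chr5:91139349-91139648 (+ strand): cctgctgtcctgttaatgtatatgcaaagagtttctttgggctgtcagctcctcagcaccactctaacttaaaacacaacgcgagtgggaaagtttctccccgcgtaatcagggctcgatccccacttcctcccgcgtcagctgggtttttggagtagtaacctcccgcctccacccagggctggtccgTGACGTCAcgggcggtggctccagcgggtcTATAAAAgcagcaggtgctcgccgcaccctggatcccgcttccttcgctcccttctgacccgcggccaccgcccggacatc
Btc, chr5:91402945-91403244 (- strand): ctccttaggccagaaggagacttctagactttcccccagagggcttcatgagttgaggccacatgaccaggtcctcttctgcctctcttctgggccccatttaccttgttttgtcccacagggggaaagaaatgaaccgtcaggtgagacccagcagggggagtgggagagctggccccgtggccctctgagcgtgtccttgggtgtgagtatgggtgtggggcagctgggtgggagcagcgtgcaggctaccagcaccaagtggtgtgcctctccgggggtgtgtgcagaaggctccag
Egfr, chr11:16751953-16752252 (+ strand): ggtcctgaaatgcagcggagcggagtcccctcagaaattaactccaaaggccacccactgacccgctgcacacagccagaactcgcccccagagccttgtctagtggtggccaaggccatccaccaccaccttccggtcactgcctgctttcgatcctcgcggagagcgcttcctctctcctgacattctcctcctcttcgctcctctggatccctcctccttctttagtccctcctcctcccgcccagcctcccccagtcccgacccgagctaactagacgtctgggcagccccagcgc

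Both strands were searched for these motifs, for the AP-1 site TGANTCA and for the GC box GGGCGG. The Areg window held the cAMP response element 61 bases before its start and the TATA box 31 bases before it, without overlap, whereas neither was found in the windows of the other 5 genes. Over all 32851 mouse promoters of the table, 1.79% held TGACGTCA and 5.48% held TATAAAA. No AP-1 site was found in the 6 windows (7.81% of all promoters held 1 or more), and the GC box occurred in Areg (2 matches), Tgfa (2) and Egfr (1), against 35.7% of all promoters. These matches describe letters in a window and do not show that a factor bound there.

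The libraries held 63922677 to 102716313 deposited counts each. DMSO 20 and DOX 19 stood apart, with 13243 and 13599 genes detected against 17054 to 17903 in the other 6 libraries, and values without them are given beside the results they bear on most. All 7 epithelial markers (Cdh1, Epcam, Krt8, Krt18, Krt19, Pax8 and Cldn7) were expressed, with a summed level of 749 to 3168 TPM (a read count scaled by transcript length and to a fixed library sum) in DMSO and 981 to 2016 in DOX. All 8 stromal markers had a mean of at least 1 TPM, and their sum was highest in DMSO 15 (3827 TPM, against 301 to 1056 in the other 7 libraries), although Dcn was at 0 in DMSO 20 and Lum at 0 in DOX 19. Of the 8 collecting duct markers 6 had a mean of at least 1 TPM, among them Hoxb7 (20.5 to 102 TPM) and Fxyd4 (4.44 to 306 TPM). Avpr2 was another, at 0 in DMSO 15 and DMSO 20 and 43.7 TPM in DMSO 5, while Aqp2 stayed under 1 TPM in every library. For its experiment on the glial-derived neurotrophic factor pulse, the paper wrote that Fxyd4, Aqp2 and Avpr2 did not seem to be shown by tubuloids. Of the 5 proximal tubule markers only Slc5a2 had a mean of at least 1 TPM (5.17 to 23.7 TPM), and Lrp2, Cubn and Slc34a1 stayed under 1 TPM in every library. DOX 19, where Erbb3 and Ereg were lowest and Erbb4 was at 0, also had the highest sum of basal and squamous epithelial markers (124 TPM, against 2.75 to 30.3 elsewhere, with Krt14 at 97.2 and Krt5 at 16.9) and the lowest sum of macrophage markers (0.0068 TPM, against 3.84 to 28.7 elsewhere), and the part of these cells in its values was not tested. Pkd2, the targeted gene, had 6130 ± 1114 normalised counts in DMSO and 4946 ± 772 in DOX (SD, n = 4), a log2 fold change of -0.31 (SE 0.215) that did not pass the test (DESeq2 adjusted p = 0.999). The whole Pkd2 transcript was counted, so reads outside the floxed part enter this value. By western blot the paper found less of the protein encoded by Pkd2 after doxycycline, although some was still detected and red cells remained. It also stated that the structures negative for E-cadherin did not respond to doxycycline. In such bulk RNA, fewer cells of a type and less RNA per cell cannot be told apart.

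Egfr had the highest mean TPM of the receptors when both of its transcripts were summed. This summed TPM was 21.0, 15.0, 56.3 and 52.2 in DMSO 3, 5, 15 and 20, and 42.5, 27.3, 35.7 and 21.9 in DOX 9, 12, 19 and 21. The lowest and the highest library were both DMSO cultures, DMSO 5 and DMSO 15, and the DOX libraries lay between them. The summed value overstates Egfr, because reads in exons shared by both transcripts appeared to be counted for each. These are the full-length receptor NM_207655 and the shorter NM_007912, and in the GENCODE M21 models they share 2197 bases of exon, while 746 bases occur only in the shorter form, most of them at its own 3′ end (chr11:16887186-16887923). The model of the shorter form is longer than the 2678 bases that the files give for NM_007912, so these base counts describe the models and not the exact transcripts counted. With the full-length transcript alone, the Egfr level was 6.83 to 25.4 TPM.

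Erbb2 was detected in all 8 libraries. Its TPM was 16.8, 24.7, 9.88 and 7.32 in DMSO 3, 5, 15 and 20, and 16.8, 20.1, 13.8 and 10.6 in DOX 9, 12, 19 and 21. Erbb2 was highest in DMSO 5, where Egfr was lowest, and lowest in DMSO 20. The ratio of summed Egfr to Erbb2 TPM therefore ran from 0.609 in DMSO 5 to 7.13 in DMSO 20. With the full-length Egfr transcript alone this ratio was 0.276 to 3.28, and Egfr was above Erbb2 in some libraries and below it in others.

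Erbb3 and Erbb4, the neuregulin receptors, were scarcer and less even. Erbb3 TPM was 4.78, 4.89, 1.16 and 12.9 in DMSO 3, 5, 15 and 20, and 5.00, 1.98, 0 and 1.75 in DOX 9, 12, 19 and 21. The highest and the lowest Erbb3 values were in the 2 libraries with few detected genes, DMSO 20 with 1577 counts and DOX 19 with 0 of 75138237. A count of 0 allows up to 3 counts, or 0.0197 TPM (counting error only). Erbb4 TPM was 1.63, 3.49, 0.0993 and 0 in DMSO 3, 5, 15 and 20, and 0.621, 1.42, 0 and 0.598 in DOX 9, 12, 19 and 21. Its zeros, in DMSO 20 and DOX 19, allow up to 0.0231 and 0.0186 TPM. Both groups thus held a library without a detected Erbb4 read.

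Areg and Hbegf were the leading ligands. Areg, the ligand amphiregulin, had 16.2, 8.94, 31.0 and 44.7 TPM in DMSO 3, 5, 15 and 20, and 60.3, 26.7, 45.2 and 64.1 TPM in DOX 9, 12, 19 and 21. Hbegf, the heparin-binding ligand, had 39.8, 33.9, 58.3 and 27.6 TPM in the DMSO libraries and 46.8, 43.9, 16.6 and 22.2 TPM in the DOX libraries, in the same order. Areg exceeded Hbegf in DMSO 20, DOX 9, DOX 19 and DOX 21, and Hbegf exceeded Areg in the other 4 libraries. Ereg, the epiregulin gene next to Areg in the chromosome 5 cluster, had 3.57, 1.67, 8.19 and 13.3 TPM in DMSO and 9.92, 5.48, 0.841 and 7.14 TPM in DOX. The ratio of Areg to Ereg TPM was 3.35 to 8.99 in 7 libraries and 53.7 in DOX 19, where Ereg was lowest while Areg was not.

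The other ligands had lower mean levels, although Btc exceeded Areg in DMSO 5. Tgfa, encoding transforming growth factor alpha, ranged from 2.07 TPM in DMSO 15 to 7.44 in DMSO 5. Btc, encoding betacellulin, ranged from 1.26 in DMSO 15 to 9.51 in DMSO 5. The same pair of DMSO libraries thus marked the ends of the range for both ligands. Nrg1 (neuregulin 1) had 3.92, 4.15, 3.45 and 0.530 TPM in DMSO 3, 5, 15 and 20, and 5.17, 4.05, 2.39 and 11.3 TPM in DOX 9, 12, 19 and 21. The files counted Nrg1 on 1 transcript, whereas RefSeq lists 12 curated ones, so reads of other isoforms may be missing from this value.

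**Figure D1:**
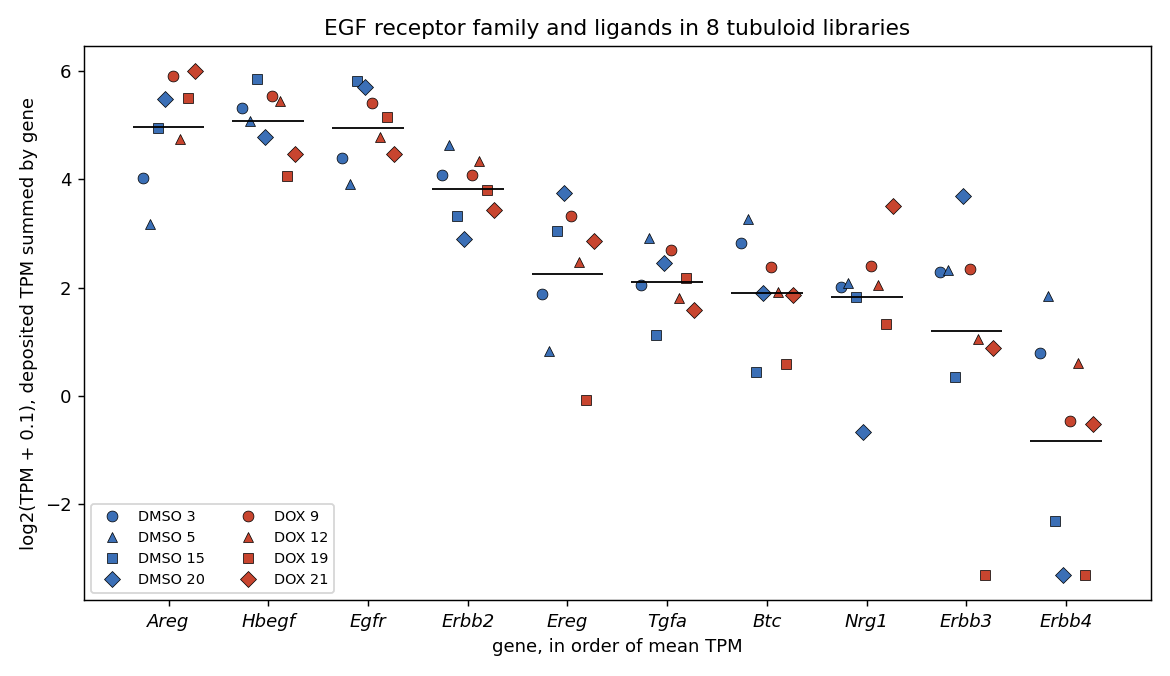
Level of each receptor and ligand, as log2(TPM + 0.1) on the vertical axis, in 4 DMSO (blue) and 4 DOX (red) libraries, with genes in order of mean TPM and a black line at the mean of the plotted values. Areg, Hbegf and Egfr lie highest, the DMSO and DOX libraries overlap in every gene, and the lowest points of Erbb3 and Erbb4 are libraries with 0 counts.

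By mean TPM over the 8 libraries the order was Areg (37.1 ± 19.9, SD), Hbegf (36.1 ± 13.8), Egfr (34.0 ± 15.2), Erbb2 (15.0 ± 5.76), Ereg (6.27 ± 4.25), Tgfa (4.50 ± 1.81), Btc (4.38 ± 2.77), Nrg1 (4.37 ± 3.13), Erbb3 (4.05 ± 4.04) and Erbb4 (0.982 ± 1.19). Neighbours in this order were compared within library on log2(TPM + 0.1) with an exact two-sided sign-flip permutation test, whose smallest possible p with 8 libraries is 0.00781. None of the 9 neighbouring pairs passed after adjustment over the pairs (smallest adjusted p = 0.141). The steps with the smallest p were from Erbb3 to Erbb4 (exact p = 0.0156, Erbb3 higher in 7 of 8 libraries), from Egfr to Erbb2 (exact p = 0.0312, Egfr higher in 7 of 8) and from Erbb2 to Ereg (exact p = 0.0469, Erbb2 higher in 7 of 8). The step from Egfr to Erbb2 was 1.14 on the log2 scale with the summed Egfr value and -0.02 with the full-length transcript alone, so the order of this pair depended on how Egfr was counted. With that transcript alone the step from Hbegf to Egfr was 1.28 in place of 0.12 (exact permutation test, adjusted p = 0.0703). The order at the top also differed between the groups and scales. In DMSO the means were 39.9 TPM for Hbegf, 36.1 for Egfr and 25.2 for Areg, in DOX they were 49.1 for Areg, 32.4 for Hbegf and 31.9 for Egfr, and on the log2 scale Areg was on average below Hbegf (step of -0.10). The step from Erbb3 to Erbb4 was 2.04 on the log2 scale and 1.55 without DMSO 20 and DOX 19. No pair of neighbours was thus shown to differ beyond its spread, and genes that were not neighbours were not compared.

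As shares of the receptor TPM, Egfr made up 31.3 to 83.5% (median 64.2%), Erbb2 10.1 to 51.4%, Erbb3 0 to 17.8% and Erbb4 0 to 7.25%. Egfr led in 7 of 8 libraries and Erbb2 in DMSO 5. These shares use the summed Egfr value, and with the full-length transcript alone Egfr was above Erbb2 in 4 of 8 libraries (DMSO 15, DMSO 20, DOX 9 and DOX 19). Among the ligands, Hbegf made up 19.9 to 55.9% and Areg 13.6 to 63.8%, and each led in 4 libraries. Nrg1 made up 0.557 to 10.2% of ligand TPM and was the smallest share in DMSO 20. The sum over the receptors was 34.9 to 72.4 TPM and the sum over the ligands 65.6 to 134 TPM.

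**Figure D2:**
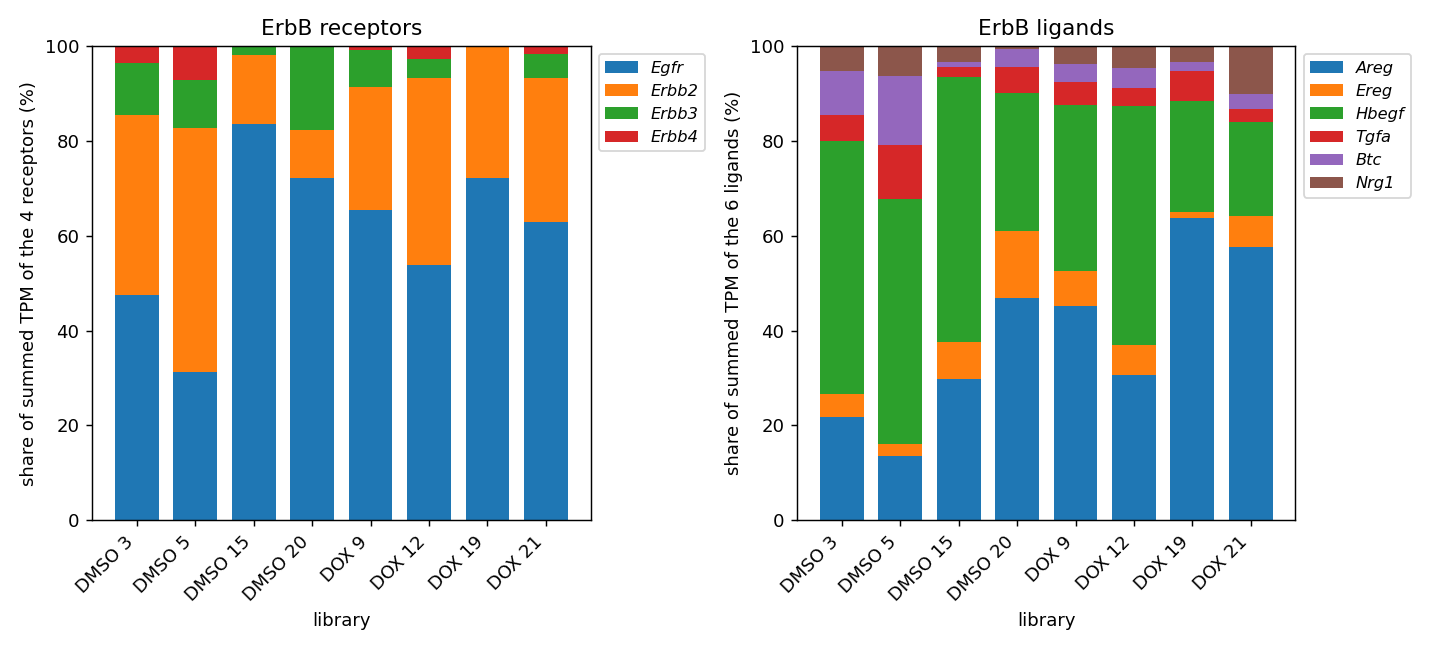
Share of the summed TPM of the 4 receptors (left) and of the 6 ligands (right) taken by each gene, in percent, with 1 bar for each library. Egfr, counted over both of its transcripts, is the largest receptor share in every library except DMSO 5 (with its full-length transcript alone it exceeds Erbb2 in 4 of 8), and Areg and Hbegf together take most of the ligand TPM.

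The comparison of DOX with DMSO asked whether RNA levels changed after Pkd2 was targeted. No receptor or ligand passed the test: 0 of 10 were called by DESeq2 (adjusted p not above 0.05, with a difference of 1.5-fold or more), against 25 of 15555 genes (0.161%). By edgeR's quasi-likelihood test 0 of 10 were called, against 0 of 15562 genes (0%), of which 476 had an unadjusted p under 0.05. None of the 10 had an unadjusted p under 0.05 with either tool, against 4.67% of all genes with DESeq2. In none did all DOX libraries lie on one side of all DMSO libraries, against 2.71% of genes with a mean of at least 2 counts. The estimates were higher with DOX for 2 of the 10 genes, with a median log2 fold change of -0.29, beside 44.5% higher and a median of -0.07 over all 19268 genes with a p-value. For each gene an exact two-sided permutation test of the normalised counts over the 70 assignments gave p = 0.114 to 0.971, where 0.0286 is the smallest p that 4 against 4 allows.

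**Figure D3:**
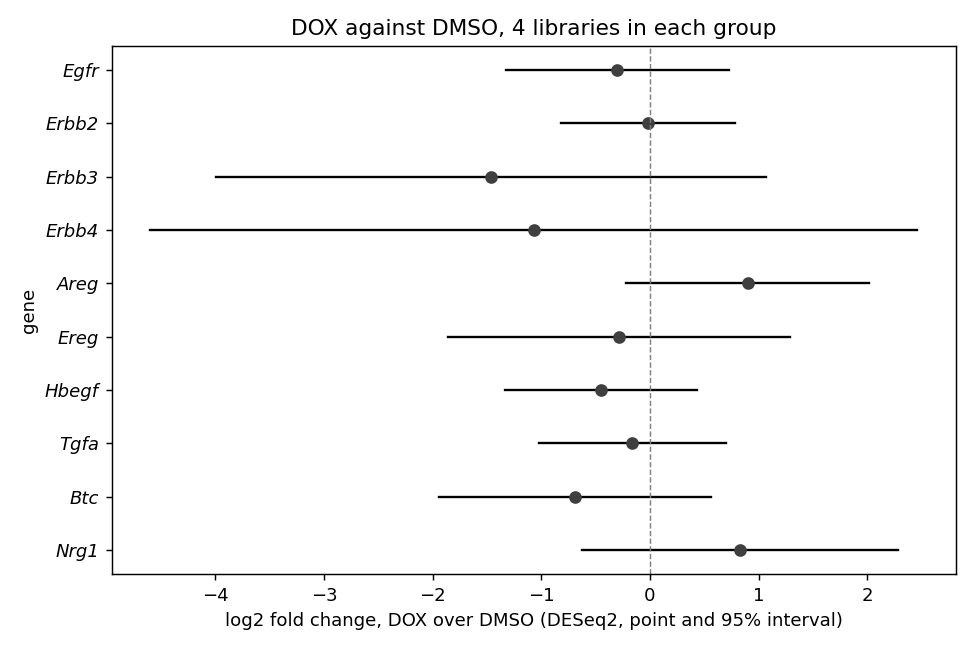
Log2 fold change of DOX over DMSO for each receptor and ligand, with its 95% interval from DESeq2 (4 libraries in each group). Every interval crosses 0, and those of Erbb3 (-3.99 to 1.07) and Erbb4 (-4.60 to 2.46) are the widest of the 10.

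Among the receptors, the estimates for Egfr and Erbb2 were smaller in size, with narrower intervals, than those for Erbb3 and Erbb4. Egfr had 6520 ± 4024 normalised counts in DMSO and 5314 ± 1757 in DOX (SD, n = 4), a log2 fold change of -0.30 (95% interval -1.32 to 0.73). The estimate became 0.09 without DMSO 15, the library with the most Egfr and the most stromal marker RNA. Erbb2 had 3073 ± 1444 normalised counts in DMSO and 3034 ± 601 in DOX, a log2 fold change of -0.02 (95% interval -0.82 to 0.78). For both genes the DOX range lay inside the DMSO range. The intervals left room for a fall of Egfr to 0.402 of the DMSO level or a rise to 1.65 times it, and for Erbb2 from 0.567 to 1.72 times.

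Erbb3 and Erbb4 had the largest negative estimates and the largest errors. Erbb3 had 904, 728, 222 and 2019 normalised counts in DMSO 3, 5, 15 and 20, and 839, 274, 0 and 293 in DOX 9, 12, 19 and 21. The DOX value of library 9 was above the DMSO values of libraries 5 and 15, so the groups overlapped. The fitted difference was -1.46 on the log2 scale (SE 1.29, DESeq2 adjusted p = 0.999). It was -0.36 without DMSO 20 and DOX 19, and ran from -2.36 without DOX 9 to -0.81 without DMSO 20 when 1 library was left out. Erbb4 had 326, 550, 20.1 and 0 normalised counts in DMSO and 110, 209, 0 and 106 in DOX, in the same library order. Its fitted difference was -1.07 on the log2 scale (SE 1.80, DESeq2 adjusted p = 0.999) and -0.11 without DMSO 5, the library with the most Erbb4. Without DMSO 20 and DOX 19, the libraries at 0, it was -1.04 (SE 0.921). In both libraries that lacked Erbb4 reads, the summed loop and distal tubule markers (Umod, Slc12a1, Slc12a3 and Pvalb) were also at 0 TPM. Some markers of other lists (Aqp3, Cited1, Lrp2, Cubn and Pecam1) were at 0 there too, of which Lrp2, Cubn and Pecam1 stayed under 1 TPM in every library. Other markers of the collecting duct, proximal tubule and nephron progenitor lists were detected in DMSO 20 and DOX 19. Among them were Wnt11 (46.3 and 64.4 TPM), Slc5a2 (23.7 and 11.1) and Six2 (5.99 and 2.21). The part of these absences in the result was not tested.

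Areg had the smallest p of the 10 genes. Its normalised counts were 912, 397, 1765 and 2090 in DMSO 3, 5, 15 and 20, and 3020, 1108, 2318 and 3203 in DOX 9, 12, 19 and 21. DOX 9, 19 and 21 were above every DMSO library, and DOX 12 was below DMSO 15 and DMSO 20. The log2 fold change was 0.90 (SE 0.570, 95% interval -0.22 to 2.02), with an unadjusted p of 0.114 and an adjusted p of 0.984 in DESeq2. Without DMSO 20 and DOX 19 it was 1.26, with an unadjusted p under 0.05 and an adjusted p of 0.696 in DESeq2. Nrg1 was the other ligand with a positive estimate. Its normalised counts were 388, 323, 344 and 43.5 in DMSO and 454, 294, 215 and 991 in DOX, in the same library order. The DMSO group had 1 low library (20) and the DOX group 1 high library (21), and the other 6 lay between 215 and 454. The estimate of 0.83 on the log2 scale (SE 0.738, DESeq2 adjusted p = 0.999) was 0.23 without DOX 21, 0.48 without DMSO 20 and 0.74 without DMSO 20 and DOX 19.

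**Figure D4:**
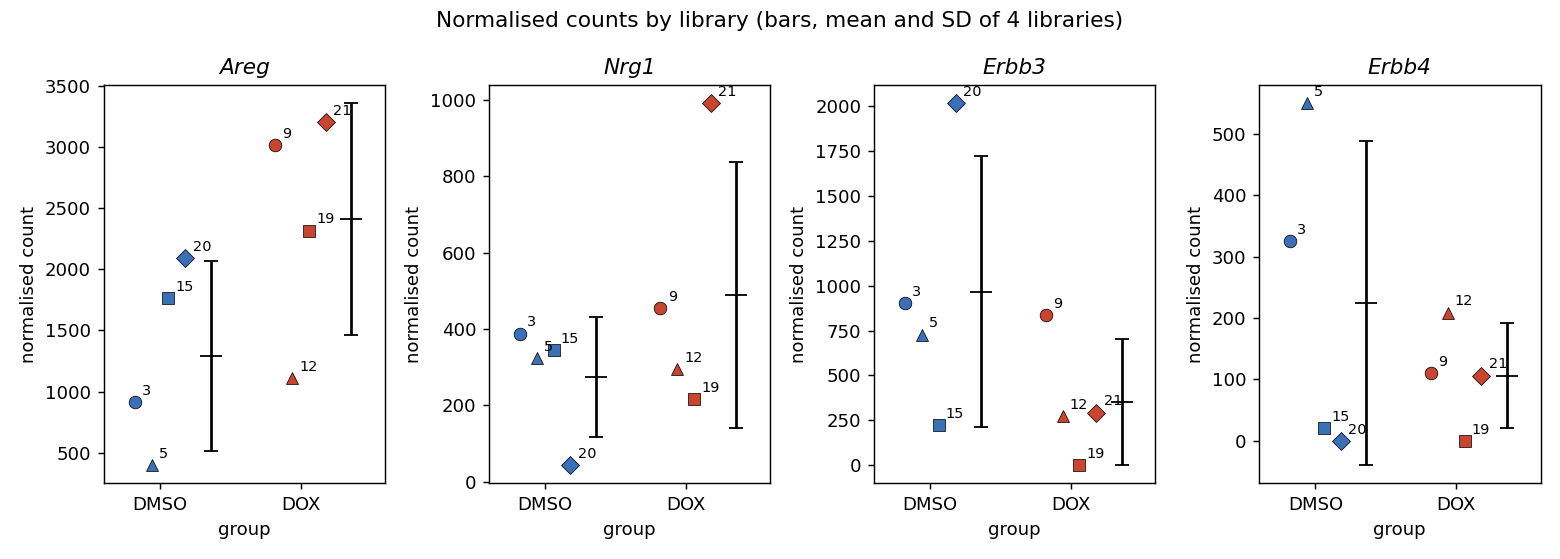
Normalised counts of Areg, Nrg1, Erbb3 and Erbb4 by group, with each point labelled by its library number and bars for the mean and SD of 4 libraries. Areg is above every DMSO value in 3 of 4 DOX libraries, while the Nrg1 means differ through DOX 21 and DMSO 20, and Erbb3 and Erbb4 reach 0 in DOX 19.

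The remaining ligands had estimates below 0. Hbegf had 4140 ± 1814 normalised counts in DMSO and 3031 ± 1347 in DOX (SD, n = 4), a log2 fold change of -0.45 (95% interval -1.33 to 0.43) that ran from -0.73 without DOX 9 to -0.13 without DMSO 15. Btc had 633 ± 409 and 393 ± 181, a log2 fold change of -0.69 (95% interval -1.94 to 0.56) that ran from -1.0 without DMSO 15 to -0.36 without DMSO 5. Tgfa had 817 ± 310 and 733 ± 300, a log2 fold change of -0.16 (95% interval -1.02 to 0.70), which was 0.07 without DMSO 5. In each of these 3 genes the difference of the means was smaller than the SD of the DMSO libraries. Ereg had 694, 256, 1608 and 2152 normalised counts in DMSO 3, 5, 15 and 20, and 1713, 783, 149 and 1230 in DOX 9, 12, 19 and 21. Its log2 fold change of -0.28 (95% interval -1.86 to 1.29) became 0.55 without DMSO 20 and DOX 19, its highest and its lowest library, so no direction can be given.

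The use of the Egfr transcripts was also compared. The count of NM_007912 divided by that of NM_207655 was 0.545, 0.540, 0.548 and 0.527 in DMSO 3, 5, 15 and 20, and 0.524, 0.543, 0.692 and 0.541 in DOX 9, 12, 19 and 21. The ratio was nearly constant over 7 libraries and higher in DOX 19. The means were 0.540 ± 0.00938 in DMSO and 0.575 ± 0.0784 in DOX (SD, n = 4, exact two-sided permutation test p = 0.771), and 0.544 ± 0.00373 and 0.536 ± 0.0103 (SD, n = 3) without DMSO 20 and DOX 19. Because reads in shared exons appeared to enter both counts, the ratio cannot be read as a ratio of molecules of the forms.

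Genes that act with the receptors were taken as 5 lists. Of their 43 genes, 42 had an adjusted p (all but Epgn) and 0 were called in either direction, against 0.161% of all genes. Estimates were above 0 for 27 and below for 16, with a median log2 fold change of 0.14, beside 44.5% above 0 and a median of -0.07 over all genes. Of the 43, 1 had an unadjusted p under 0.05, against 4.67% of all genes. Among 5 other ErbB ligands (2 higher, 3 lower, median -0.28), Nrg4, a ligand of Erbb4, was the most abundant at 9.11 ± 2.08 TPM in DMSO and 11.9 ± 0.633 in DOX. It was thus above Ereg, Tgfa, Btc and Nrg1 in mean TPM. Egf, the founding ligand of the family and made by the distal tubule in the adult kidney, had 0.692 ± 0.719 TPM in DMSO and 0.183 ± 0.146 in DOX, and it had the smallest p of this list (log2 fold change -1.92, SE 1.31, DESeq2 adjusted p = 0.999). Among 7 genes of ligand shedding (5 higher, 2 lower, median 0.06), Adam17, the protease that releases most of these ligands, was the most abundant at 157 ± 81.1 TPM in DMSO and 170 ± 14.7 in DOX. The smallest p there was that of Adam12 (log2 fold change -0.57, SE 0.315, DESeq2 adjusted p = 0.936).

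Among 9 adaptors and ubiquitin ligases of the receptors, 8 estimates were above 0 and 1 below (median 0.22). Shc1, an adaptor that links activated receptors to Ras, had the highest level, 178 ± 35.0 TPM in DMSO and 230 ± 5.06 in DOX (log2 fold change 0.27, SE 0.254). Gab1, a docking protein, had the smallest p, with an estimate of 0.34 on the log2 scale (SE 0.193, DESeq2 adjusted p = 0.944). Neither passed the test. Among 11 feedback inhibitors (5 higher, 6 lower, median -0.04), Spry1 was the most abundant at 208 ± 90.3 TPM in DMSO and 239 ± 66.1 in DOX, and Spry4 had the smallest p (log2 fold change 0.37, SE 0.285, DESeq2 adjusted p = 0.999). Among 11 early response genes (7 higher, 4 lower, median 0.12), Ier3 was the most abundant at 242 ± 75.3 TPM in DMSO and 176 ± 34.3 in DOX. Fos, a transcription factor gene induced within minutes of receptor activation, had 9.38, 8.52, 23.7 and 19.8 TPM in DMSO 3, 5, 15 and 20, and 7.54, 8.45, 10.4 and 6.54 in DOX 9, 12, 19 and 21. Fos was high in DMSO 15 and DMSO 20 and similar in the other 6 libraries, and its group means were 15.4 ± 7.58 and 8.24 ± 1.66 TPM (SD, n = 4). Its difference (SE 0.450 on the log2 scale, unadjusted p = 0.0259) had an adjusted p of 0.774 in DESeq2.

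**Figure D5:**
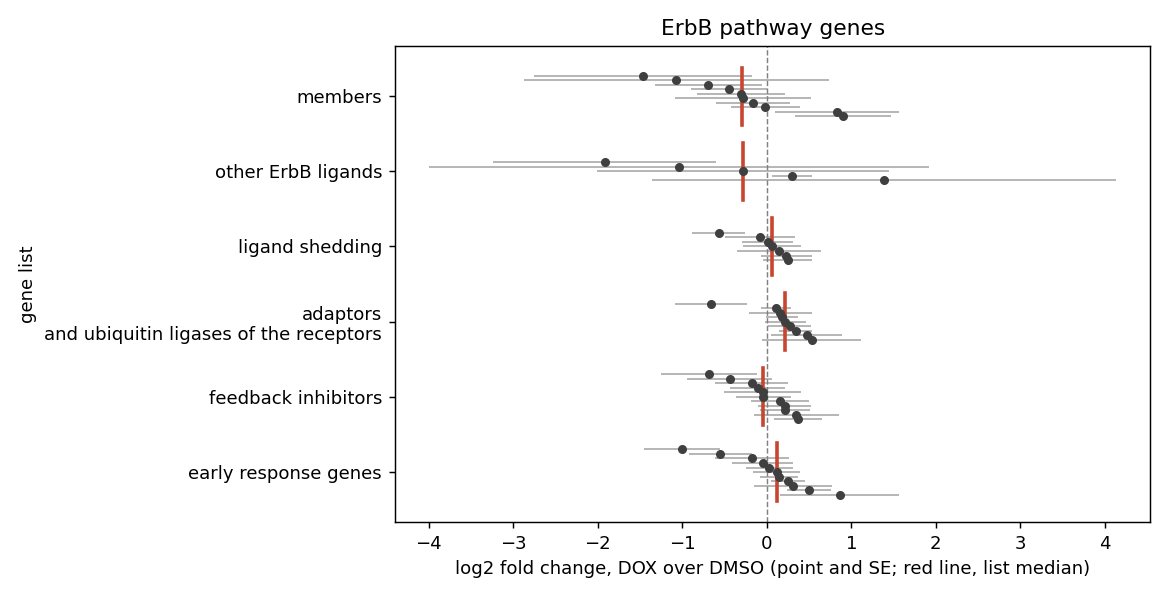
Log2 fold change of DOX over DMSO for each gene of the receptor and ligand list (members) and of 5 lists of pathway genes, with SE as horizontal bars and the median of each list as a red line. The medians lie between -0.29 and 0.22, and the longest bars belong to Epgn, Nrg3, Erbb4 and Nrg2.

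Since the cultures differed in epithelial and stromal marker RNA, each of the 10 genes was set against the summed markers across the 8 libraries on log2(TPM + 0.1), which gave 20 relations. None passed after Benjamini-Hochberg adjustment, and 4 had an unadjusted Pearson p under 0.05. For Btc and the epithelial markers Pearson's r was 0.82 (exact permutation p = 0.0132, adjusted 0.167) and Spearman's rho was 0.86 (exact permutation p = 0.0107, adjusted 0.214). Its r was 0.68 without the libraries farthest from the median, DMSO 3 and DMSO 15, 0.91 without DMSO 20 and DOX 19, 0.97 within DMSO and 0.29 within DOX (n = 4 each). For Tgfa and the same markers r was 0.78 (exact permutation p = 0.025, adjusted 0.167) and rho was 0.76 (exact permutation p = 0.0368, adjusted 0.245), and r was 0.97 without those farthest libraries, 0.75 within DMSO and 0.98 within DOX. For Egfr and the stromal markers r was 0.71 (exact permutation p = 0.0365, adjusted 0.183) and rho was 0.43 (exact permutation p = 0.299, adjusted 0.594). This relation, and that of Tgfa with the stromal markers (r = -0.77, exact permutation p = 0.0247, adjusted 0.167, rho = -0.60, exact permutation p = 0.132, adjusted 0.529), rested on DMSO 15 and DMSO 5, without which r was -0.05 for Egfr and 0.15 for Tgfa. Without DMSO 20 and DOX 19, which keeps both of those libraries, r was 0.87 for Egfr (exact permutation p = 0.025, adjusted 0.149) and -0.80 for Tgfa (exact permutation p = 0.0542, adjusted 0.149), and r of Erbb3 with the epithelial markers was 0.96 in place of 0.43 (exact permutation p = 0.00972, adjusted 0.0972). Within DOX r was -0.06 for Egfr and 0.08 for Tgfa, against 0.81 and -0.97 within DMSO.

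The genes with the most similar pattern over the 8 libraries were found for each receptor among 13247 genes with a mean of at least 100 normalised counts, by the mean absolute difference of centred log2 values. For Egfr they were Lpar1 (0.186), a receptor of lysophosphatidic acid, Frmd6 (0.192) and Ndrg4 (0.194). For Erbb2 they were Knop1 (0.108), Morc3 (0.124) and D11Wsu47e (0.126). This measure is not scaled by a gene's spread, so its values are not comparable between receptors. For Erbb3 they were Ifih1 (0.326), a sensor of double-stranded RNA, Cldn23 (0.375), a claudin of epithelial junctions, and Skap1 (0.404), each also listed at 0 TPM in DOX 19. For Erbb4 they were Gbp9 (0.306), BC064078 (0.311) and 5930403L14Rik (0.327), each listed at 0 TPM in both DMSO 20 and DOX 19, as Erbb4 was. Because genes were chosen by their likeness to Erbb3 or Erbb4 over the same libraries, the shared zeros follow from that choice.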

How the data were processed

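RNA from 8 tubuloid cultures was made into poly-A selected SMART-Seq v4 libraries and sequenced in paired ends. The submitters' processing notes name STAR, featureCounts and DESeq2 on mm10 (GRCm38); versions, strand settings and which library ran in which lane were not given in the sources used here. The deposited counts are whole reads per RefSeq transcript. The authors' FPKM divides the count by transcript length and library total, and was not used. The deposited TPM rescales it to a fixed sum per library, and was used only for levels and shares. Reads shared by paralogs, overlapping or antisense genes were not separable.

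Counts and TPM were summed by symbol. DOX and DMSO were compared over all 24063 genes with DESeq2 1.42.0 (R 4.3.3, Wald test, independent filtering alpha 0.1, Benjamini-Hochberg; called at adjusted p of at most 0.05 and 1.5-fold), the tool of the study. edgeR 4.0.16 (quasi-likelihood), limma-voom 3.58.1, other filters and scalings, and leaving out libraries were alternatives. Normalised counts are counts divided by DESeq2 size factors. Single values were compared with exact permutation tests (scipy 1.17.1). The fits were tested on simulated data. A count of 0 was read as up to 3 counts. Samples were grouped by title, and library numbers were not shared between groups. The genes and lists were chosen with earlier results of these data known. In each pathway list the gene with the highest mean TPM, that with the smallest p and every called gene were named, and for each receptor the 3 most similar genes. The relations with marker sums were added after values were seen. The result of 1 marker list is not reported here.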

Additional observations from a re-analysis of the deposited data

Results flagged for a closer look

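In 22 groups of 4 libraries (each gene in each treatment, with Pkd2), the gap of the highest or lowest library to its nearest neighbour, as a share of the group's range on log2(normalised count + 1), was compared with Dixon's 95% critical value. The gap exceeded it in 3 groups, where chance gives about 1.1. Erbb3 in DOX 19 was at 0 normalised counts, against 274 to 839 in the other DOX libraries (share 0.834). Erbb4 in DOX 19 was also at 0, against 106 to 209 in the other DOX libraries (share 0.874). Nrg1 in DMSO 20 was at 43.5, against 323 to 388 in the other DMSO libraries (share 0.916). All 3 lay in the libraries with few detected genes.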

How the results depend on the processing

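In place of 25 genes, 0 were called by edgeR (476 at an unadjusted p under 0.05), 0 by limma-voom (478), 16 with at least 10 counts in every library, 48 with Cook's distance filter off, 51 without DMSO 20 and DOX 19, 40 with these libraries as a covariate, 41 when adjusted p up to 0.1 was accepted, and 14 (without DMSO 3) to 74 (without DMSO 15) when 1 library was left out. None of the 10 receptors and ligands was called under any of these settings, and Erbb3 and Erbb4 could not be fitted with at least 10 counts in every library. Areg had an unadjusted p under 0.05 in 3 settings (without DMSO 20 and DOX 19, without DMSO 20, without DOX 12), with a log2 fold change of 0.60 to 1.26 over all settings and a lowest adjusted p of 0.611, and Nrg1 had one with the covariate (log2 fold change 1.09, adjusted p 0.645). Signs reversed for Erbb2 (0.08 with limma-voom, 0.07 with the covariate, -0.26 to 0.24 when 1 library was left out), Ereg (0.55 without DMSO 20 and DOX 19, -0.71 to 0.18 when 1 library was left out), Egfr (-0.57 to 0.09) and Tgfa (-0.45 to 0.07, both when 1 library was left out). The log2 level steps reversed from Egfr to Erbb2 with 1 transcript per gene (-0.02) and, without DMSO 20 and DOX 19, from Tgfa to Btc (-0.08) and Btc to Nrg1 (-0.20). When 1 library was left out they ran from -0.33 to 0.16 for Areg to Hbegf, -0.03 to 0.29 for Hbegf to Egfr, -0.09 to 0.51 for Ereg to Tgfa and -0.28 to 0.32 for Btc to Nrg1. Hbegf against the epithelial markers had r = -0.08 without DMSO 20 and DOX 19 in place of 0.02, a change chosen after seeing the data. Erbb3 was -2.92 with limma-voom and Erbb4 -0.18. The cause of these changes was not tested. No paired analysis was possible because the groups share no library number. With 4 libraries a group, the 95% interval of each of the 10 genes is wider than 2-fold from end to end.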
